A study of Mus musculus with 9 samples.

Results

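The heat shock chaperone genes described here are 10 mouse genes, Hspa1a, Hspa1b, Hspa1l, Hspa2, Hspa5, Hspa8, Hspb1, Hsph1, Hsp90aa1 and Dnajb1. They were chosen by symbol and not by a rule on their measured values, though with earlier results of these data known. Array probes were assigned to these genes through RefSeq accessions. Of the 10 genes, 9 had a probe, with 12 probes in all, and Hspa1b was not analysed here. The array held 32450 genes or identifiers, of which 20443 were tested, and 8 of the 10 chaperone genes were among those tested. Hspa1l was the member that had a probe and was not tested, because no group had it well above background on all 3 arrays.

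Total RNA was labelled with Cy3 and hybridised to 9 Agilent 1-colour arrays, 3 for each of 3 groups of sorted cells that the series describes as biological replicates. Control cells were VV3, a male embryonic stem (ES) cell line of 129SV background with a Venus reporter under the Vasa (Ddx4) promoter, given the non-silencing AllStars siRNA and sorted 3 days later as live single cells. Max knockdown cells were the same line given siRNA against Max, and at 3 days these were gated for Venus as well, so siRNA and gate differ together in that comparison. Primordial germ cells (PGCs) were taken at E13.5 from male genital ridges of the MCH x C57BL6/J cross with the Oct4ΔPE-GFP transgene, treated with trypsin and sorted for GFP. All groups therefore passed through cell sorting, both ES cell groups come from 1 line, and the number of embryos behind a PGC sample is unknown here.

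Heat shock proteins bind unfolded or nascent proteins and help them fold, and many of their genes are switched on by heat shock factors when proteins misfold. HSP70 proteins work in a cycle: a J-domain partner such as DNAJB1 delivers the client and triggers ATP hydrolysis, and a nucleotide exchange factor such as HSPH1 resets the chaperone, while HSP90 finishes many signalling proteins. In the male germ line, HSPA2 and HSPA1L are the HSP70 forms known from meiotic and later spermatogenic cells, and HSPA2 is needed for spermatocytes to complete meiosis.

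The stretches before the start sites of 4 members are shown because the well known binding sequences of the heat shock and ER stress factors can be looked for in them, beside genes that moved in different ways. Each window is the 250 bases before the start, 5′ to 3′ on the strand of the gene, from RefSeq on GRCm38.p6, a build used for these windows alone. Capitals mark matches to the heat shock pairs GAANNTTC or TTCNNGAA, or, in Hspa5, to the ER stress response element, a CCAAT and a CCACG set apart by a fixed spacer of any bases. Hspa1a lies on the minus strand at chr17:34972157-34972406, Hsph1 on the minus strand at chr5:149636337-149636586, Hspb1 on the plus strand at chr5:135887669-135887918 and Hspa5 on the plus strand at chr2:34771840-34772089.
Hspa1a: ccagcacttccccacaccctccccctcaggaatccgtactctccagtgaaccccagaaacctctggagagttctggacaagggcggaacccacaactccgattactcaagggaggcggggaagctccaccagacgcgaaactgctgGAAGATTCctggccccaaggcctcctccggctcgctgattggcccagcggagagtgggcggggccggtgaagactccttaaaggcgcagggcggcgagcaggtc
Hsph1: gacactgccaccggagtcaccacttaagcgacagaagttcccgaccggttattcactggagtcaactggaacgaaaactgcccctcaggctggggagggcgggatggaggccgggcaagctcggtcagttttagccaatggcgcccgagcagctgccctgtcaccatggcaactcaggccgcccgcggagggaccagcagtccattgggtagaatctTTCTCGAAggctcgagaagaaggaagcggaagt
Hspb1: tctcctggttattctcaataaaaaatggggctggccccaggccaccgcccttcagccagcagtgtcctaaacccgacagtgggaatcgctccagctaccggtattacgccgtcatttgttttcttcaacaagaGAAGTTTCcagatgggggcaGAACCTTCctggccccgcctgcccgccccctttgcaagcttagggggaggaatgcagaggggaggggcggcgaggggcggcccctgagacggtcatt
Hspa5: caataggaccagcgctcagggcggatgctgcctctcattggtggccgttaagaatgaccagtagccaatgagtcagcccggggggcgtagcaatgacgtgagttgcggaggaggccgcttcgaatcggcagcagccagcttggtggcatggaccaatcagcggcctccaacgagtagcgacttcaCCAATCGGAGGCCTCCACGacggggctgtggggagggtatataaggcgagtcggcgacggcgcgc

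Windows were found for 8 of the 10 members, and both strands were searched. Hspa1a held the pair GAAGATTC at 104 to 97 bases before its start, Hsph1 held TTCTCGAA at 33 to 26 bases, and Hspb1 held GAAGTTTC at 117 to 110 and GAACCTTC at 97 to 90 bases. A pair was present in 4 of the 8 windows, counting Hspa1b, against 12.8% of 32851 windows over all genes. Hspa1a and Hspa1b are not separate cases, since their windows differ at 3 of 250 bases (98.8% identical). The ER stress response element stood in Hspa5 at 65 to 47 bases before the start, as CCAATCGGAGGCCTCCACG, and in 0.113% of all windows. These letters were not in the windows of Hspa2, Hspa1l and Dnajb1. The E-box CACGTG, the sequence that MYC and MAX bind, was in 6.02% of all windows and in 0 of these 8. No motif searched overlapped another in these windows, and a match is a string of letters, not a measured binding site.

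Levels are given as log2 of the signal relative to the 75th percentile of the same array, so a difference of 1 is a 2-fold change. Max ranged from 2.74 to 2.85 in control cells, from 0.59 to 1.13 in Max knockdown cells and from 3.57 to 3.77 in PGCs, and Ddx4, a germ cell RNA helicase whose promoter drives Venus, from 0.13 to 0.44, 2.73 to 3.07 and 3.81 to 4.12. Pou5f1 (Oct4) stood between 4.33 and 4.81 on all arrays. Between 58.2% and 67.6% of spots were well above background on an array, no spot was saturated, and replicates correlated at 0.991 to 0.995 across genes.

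The first comparison asks what loss of Max in Venus-positive ES cells goes with. In Max knockdown cells 4 of the 8 tested chaperone genes rose and none fell: Hspa1a, Hspa2, Hsph1 and Dnajb1. The rises were between 1.37-fold and 2.38-fold, while Hspa8, Hspa5, Hsp90aa1 and Hspb1, did not pass the test. Of all genes tested, 40.1% were called in this comparison (limma, adjusted p under 0.05), 18.2% as rises and 21.9% as falls, and the median log2 difference was 0.26 for the 8 members against -0.07 for all genes. The arrays of the 2 groups did not overlap for 5 of the 8 members, against 54.1% of all genes. The 4 rises kept their direction under the 4 scalings tried, though with spike-in scaling and no term for the slide none of the 8 was called.

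The second comparison sets germ cells of the embryo against control ES cells. In PGCs 6 of the 8 tested members rose, 1 fell and Hspa5 did not pass the test, where 75.6% of all genes were called, 43.2% as rises and 32.4% as falls. The arrays did not overlap for 7 of the 8, against 78.5% of all genes. Dnajb1 and Hspa2 had the largest rises, 4.58-fold and 3.59-fold, and Hspb1 fell 47.8-fold. The third comparison, PGCs against Max knockdown cells, had 6 rises and 1 fall, beside 76.3% of all genes called, 44.9% as rises and 31.4% as falls. In it 7 of the 8 did not overlap, again against 78.5% of all genes. With most genes called in the PGC comparisons, the counts say little about the members, and the sizes below say more. Each pair of comparisons shares the arrays of 1 group, so their counts are not independent of each other.

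**Figure D1:**
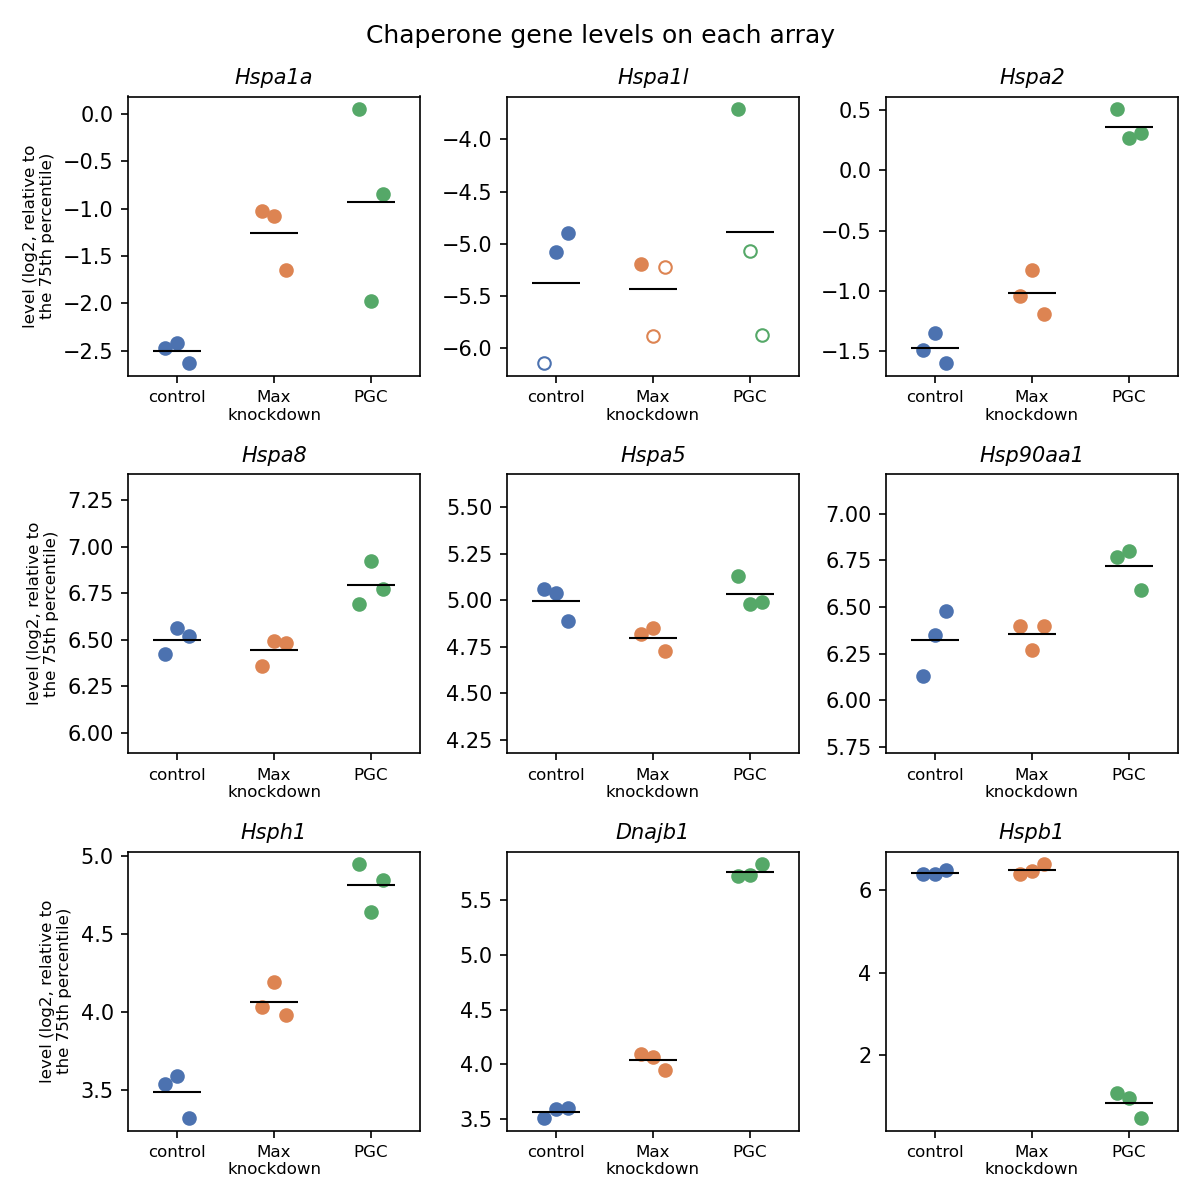
Level of each chaperone gene with a probe on every array (y axes, log2 relative to the 75th percentile of the array, with a separate range per gene), in control, Max knockdown and PGC samples. Each point is 1 array, bars are group means, and open points were not well above background. Hspb1 falls from above 6 in both ES cell groups to about 1 in PGCs, while Dnajb1, Hsph1 and Hspa2 step up from control to knockdown to PGC with no overlap.

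Hspa1a encodes the main stress-inducible HSP70. Its level was -2.47, -2.42 and -2.63 on the control arrays, -1.03, -1.08 and -1.65 in Max knockdown cells, and 0.05, -1.98 and -0.85 in PGCs. Every array of the knockdown and PGC groups lay above all control arrays, and the PGC arrays (SD 1.02) spread to both sides of all 3 knockdown arrays. The rise of Hspa1a in knockdown cells was 2.38-fold (log2 1.25, SE 0.43, adjusted p = 0.049 by limma) and 2.98-fold in PGCs against control (log2 1.58, SE 0.43, adjusted p = 0.0095). PGCs and knockdown cells did not differ beyond their spread (log2 0.32, 95% interval -0.67 to 1.32, adjusted p = 0.51). Without PGC replicate 2 they differed by 0.85 (adjusted p = 0.028).

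The SE of Hspa1a pools the spread of the 3 groups, with an SD of 0.11 in control, 0.34 in knockdown and 1.02 in PGC samples. Leaving out any 1 of the 6 ES cell arrays ended it (adjusted p from 0.053 without knockdown replicate 4 to 0.13 without knockdown replicate 1), whereas a fit of the control and knockdown arrays alone gave the same difference with an SE of 0.18 (adjusted p = 0.003). Slide 1 held replicates 1 and 2 of both ES cell groups and slide 2 held control 3 and knockdown 4. Within them the difference was 1.39 and 0.98, and with slide as a block the adjusted p was 0.001. Hspa1b is a near-identical neighbour of Hspa1a, and the sequence of the probe is not in the files, so signal from Hspa1b in this probe cannot be told apart.

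Hspa1l, the testis HSP70 gene, starts 547 bases from Hspa1a and is transcribed in the opposite direction. It was dim: its probe was well above background on 2 control arrays, 1 knockdown array and 1 PGC array. The levels were -6.14, -5.08 and -4.90 in control cells, -5.19, -5.88 and -5.22 in knockdown cells and -3.71, -5.07 and -5.87 in PGCs. The groups overlapped throughout, and the highest value was PGC replicate 1, which was also the highest array for Hspa1a. No fold is given for it here, and its log2 differences without the filter on dim genes stand in the closing section.

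Hspa2 encodes the HSP70 of meiotic spermatocytes. Its control arrays read -1.49, -1.35 and -1.60, against -1.04, -0.83 and -1.19 in knockdown cells and 0.51, 0.27 and 0.31 in PGCs. The 3 groups did not overlap, with control lowest and PGCs highest. The step up in knockdown cells was 1.37-fold (log2 0.45, SE 0.12, adjusted p = 0.017 by limma), and the call was lost without knockdown replicate 2 or control replicate 3 (adjusted p = 0.058 and 0.059). Within slides 1 and 2 the difference was 0.48 and 0.40, and with slide as a block the adjusted p was 0.012. The PGC level was 3.59-fold above control (log2 1.84, SE 0.12, adjusted p = 1.6e-06) and 2.62-fold above knockdown cells (log2 1.39, adjusted p = 9.7e-06).

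Among 14443 other named genes tested, those whose levels ran most like Hspa2 over the 9 arrays were Rnf216 (Pearson r = 0.997), Armc9 (0.995) and Ppp6r1 (0.995). Rnf216 had means of -0.17 in control, 0.28 in knockdown and 1.70 in PGC samples. The 9 arrays form 3 groups, so these coefficients mostly follow 3 group means and are given as a description.

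Hspa8 encodes HSC70, the constitutive HSP70 of the cytosol, and was read by 3 probes. The brightest probe read 6.42, 6.56 and 6.52 in control cells, 6.36, 6.49 and 6.48 in knockdown cells and 6.69, 6.92 and 6.77 in PGCs. Control and knockdown arrays overlapped (log2 -0.06, 95% interval -0.26 to 0.15, limma adjusted p = 0.66), and all PGC arrays were above both. PGCs were 1.23-fold above control (log2 0.29, SE 0.09, adjusted p = 0.016), a call lost without control replicate 1 (adjusted p = 0.056), with quantile normalization (log2 0.10, adjusted p = 0.27) and with normexp (log2 0.13, adjusted p = 0.16). The size depended on the probe: the other probes gave 0.58 and 0.99 for PGCs against control, and 0.85 and 1.15 against knockdown cells, where the brightest gave 0.35. For knockdown against control the other probes gave -0.27 (adjusted p = 0.043) and -0.17 (adjusted p = 0.29). Which transcripts each probe reads was not tested.

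Hspa5 encodes BiP, the HSP70 of the endoplasmic reticulum (ER). Its levels were 5.06, 5.04 and 4.89 in control cells, 4.82, 4.85 and 4.73 in knockdown cells and 5.13, 4.98 and 4.99 in PGCs. Knockdown arrays were the lowest group and lay below all control arrays, but the difference missed the threshold (log2 -0.20, 95% interval -0.40 to 0.00, limma adjusted p = 0.10). PGCs and control cells overlapped (log2 0.03, 95% interval -0.16 to 0.23, adjusted p = 0.73). PGCs were 1.17-fold above knockdown cells (log2 0.23, adjusted p = 0.037), a call lost without any 1 of the knockdown arrays or of PGC replicates 1 and 3 (adjusted p from 0.052 to 0.11). Among the genes most like Hspa5 over the 9 arrays were Hsp90b1 (Pearson r = 0.966) and Nckap1 (0.955). Hsp90b1 had means of 5.02, 4.70 and 5.04 in control, knockdown and PGC samples.

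Hsp90aa1 encodes the stress-responsive HSP90 of the cytosol. It read 6.13, 6.35 and 6.48 in control cells, 6.40, 6.27 and 6.40 in knockdown cells and 6.77, 6.80 and 6.59 in PGCs. The ES cell groups overlapped (log2 0.04, 95% interval -0.22 to 0.29, limma adjusted p = 0.83). PGCs were above every ES cell array, 1.32-fold over control (log2 0.40, SE 0.11, adjusted p = 0.01) and 1.29-fold over knockdown cells (log2 0.36, adjusted p = 0.016). Against control the difference was 0.22 with quantile normalization, where the call was lost (adjusted p = 0.072), and 0.23 with normexp (adjusted p = 0.038). The call against knockdown cells was lost without knockdown replicate 2 or PGC replicate 2 (adjusted p = 0.055 and 0.05).

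Hsph1 encodes HSP110, the exchange factor that resets HSP70. Its brighter probe read 3.54, 3.59 and 3.32 in control cells, 4.03, 4.19 and 3.98 in knockdown cells and 4.95, 4.64 and 4.85 in PGCs, 3 groups without overlap. Knockdown cells were 1.5-fold above control (log2 0.58, SE 0.12, adjusted p = 0.0047 by limma), with 0.54 within slide 1, 0.66 within slide 2 and an adjusted p of 0.0037 with slide as a block. PGCs were 2.51-fold above control (log2 1.33, SE 0.12, adjusted p = 1e-05) and 1.68-fold above knockdown cells (log2 0.75, adjusted p = 0.00038). The second probe of Hsph1 gave 0.64, 1.49 and 0.86 for the same 3 differences.

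Dnajb1, an HSP40, is the J-domain partner that hands clients to HSP70. Levels were 3.51, 3.59 and 3.60 in control cells, 4.09, 4.07 and 3.95 in knockdown cells and 5.72, 5.73 and 5.83 in PGCs. The groups were tight and did not overlap. Knockdown cells had 1.38-fold more Dnajb1 signal than control cells (log2 0.47, SE 0.08, adjusted p = 0.0021 by limma), with 0.53 and 0.35 within the 2 slides and an adjusted p of 0.0062 with slide as a block. It was 4.58-fold higher in PGCs than in control cells (log2 2.19, SE 0.08, adjusted p = 6.9e-08) and 3.31-fold higher than in knockdown cells (log2 1.73, SE 0.08, adjusted p = 2.5e-07). No leave-one-out fit changed a call of Dnajb1 or Hsph1.

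Hspb1 encodes HSP25, the mouse HSP27, a small heat shock protein that holds unfolded clients without ATP. It read 6.39, 6.40 and 6.48 in control cells, 6.39, 6.46 and 6.63 in knockdown cells and 1.09, 0.97 and 0.49 in PGCs. The ES cell groups overlapped (log2 0.07, 95% interval -0.28 to 0.41, limma adjusted p = 0.77), and the PGC arrays were far below both, yet well above background. The fall in PGCs was 47.8-fold against control (log2 -5.58, SE 0.15, adjusted p = 1.8e-08) and 50-fold against knockdown cells (log2 -5.64, SE 0.15, adjusted p = 1.9e-08). By size, this fall ranked 136 among the 20443 genes tested in PGCs against control.

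**Figure D2:**
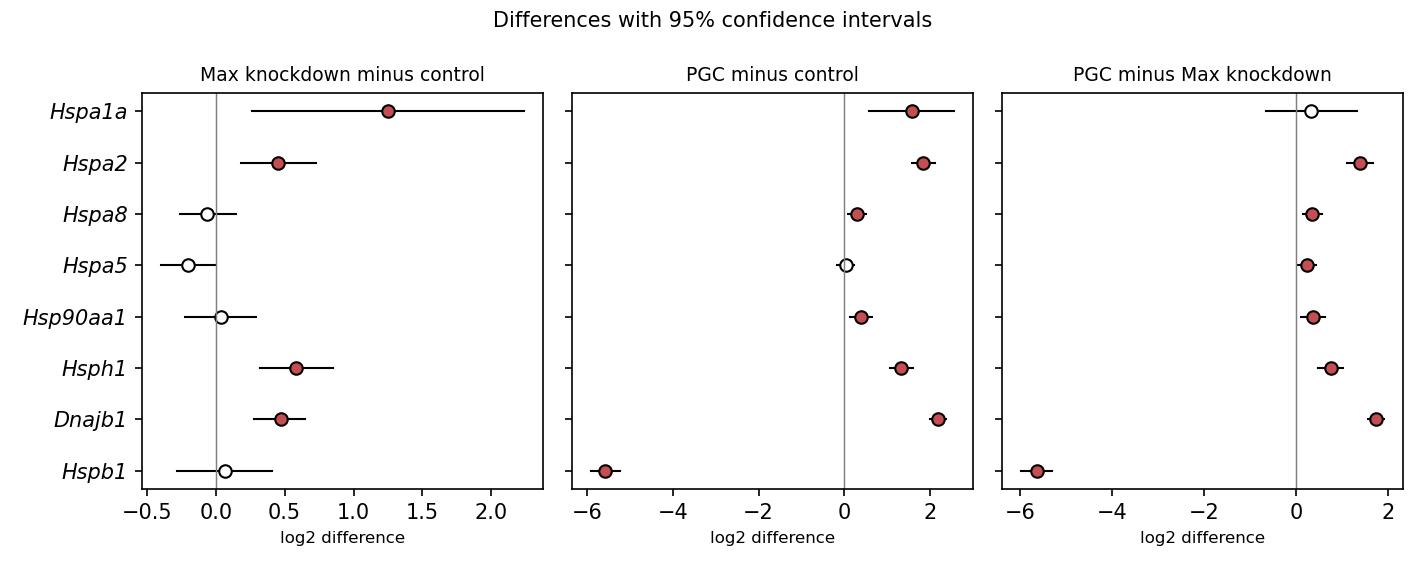
Log2 difference of the 8 tested chaperone genes in the 3 comparisons (x axes, a separate range per panel), with 95% confidence intervals from limma as bars. Filled points have an adjusted p under 0.05. Hspb1 stands apart at -5.58 and -5.64 in the PGC comparisons and near 0 in knockdown against control, and Hspa1a has the widest intervals.

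Several directions depend on what is taken as constant between arrays. The log2 75th percentile relative to the spike-ins was -1.63 to -1.44 on slide 1, and -2.66 and -2.5 on slide 2. It was -2.25 in PGC replicate 1 and -3.22 and -3.05 in PGC replicates 2 and 3, which shared slide 4. It thus differed between slides within each ES cell group too. Slide and cell type cannot be told apart in the spike-in shift of PGCs. With scaling on spike-in transcripts, the median of all genes moved from 0.18 to -0.78 in PGCs against control and from 0.21 to -0.77 in PGCs against knockdown cells, and rises made up 13.3% and 11.9% of calls in place of 57.2% and 58.8%. In knockdown against control, rises made up 71.5% of 1022 calls in place of 45.3% of 8205. Spike-in scaling shifts every gene of an array by the same amount, so values relative to the median of all genes are the same as before by construction: Dnajb1 was 2.02, Hspa2 1.66, Hspa1a 1.40, Hsph1 1.15, Hsp90aa1 0.22, Hspa8 0.12 and Hspa5 -0.14 above or below that median in PGCs against control. Hspb1 was at -5.76. Dnajb1 and Hspb1 were called in PGCs against control under the 4 scalings, and Hspa2, Hspa1a and Hsph1 kept their sign but not their call with spike-ins (0.88, 0.61 and 0.37). The small rises of Hspa8 (brightest probe) and Hsp90aa1 turned to -0.67 and -0.56 with spike-ins, and Hspa5, not called, went from 0.03 to -0.93. Against knockdown cells, Hspa5, Hspa8 and Hsp90aa1 stood between -0.03 and 0.02 with quantile normalization or normexp, and with spike-ins Hsph1 turned to -0.24 and Hspa1a, not called, to -0.66.

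**Figure D3:**
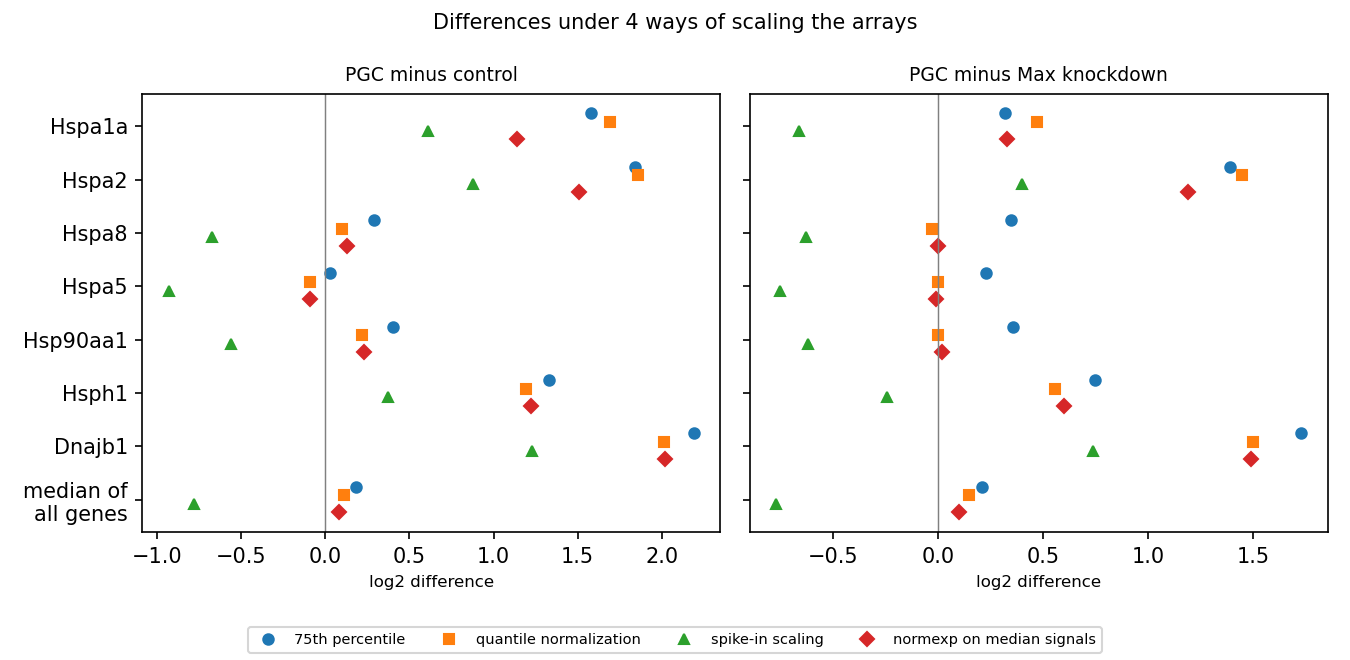
Log2 difference of PGCs from control (left) and from Max knockdown cells (right) for 7 chaperone genes and for the median of all genes, under 4 ways of scaling the arrays (x axes, log2). Spike-in values (triangles) lie about 1 unit lower for every gene and for the median of all genes. Hspa8, Hspa5 and Hsp90aa1 lie near that median under each scaling.

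Other genes of the protein folding system give the setting. In knockdown cells, 7 of 41 other cytosolic chaperones and co-chaperones rose and 16 fell, with a median of -0.16 (-0.07 over all genes). Of all genes, 18.2% rose and 21.9% fell there. These list counts were 7 and 13 with quantile normalization, and 1 rise and no fall with spike-ins and no term for the slide. Fkbp6, a co-chaperone of the germ cell piRNA pathway, rose 14.2-fold (log2 3.83, limma adjusted p = 7.1e-07), and Bag3, a co-chaperone of HSP70 that is itself a well known heat shock gene, fell by 1.36 (log2 -1.36, adjusted p = 1.4e-05). Bag3 thus had the opposite sign to the 4 chaperone genes that rose in knockdown cells. Others of this list rose with them, such as Dnaja4 (log2 0.84, limma adjusted p = 0.0011) and Hspa4l (log2 0.71, adjusted p = 0.0019). The small heat shock protein genes Cryab and Hspb2 were among those that fell (log2 -1.32 and -1.54, adjusted p = 6.7e-05 and 0.00016). Dnaja4, Hspa4l, Cryab and Hspb2 were named after their values were seen. Whether a heat shock response takes part was not tested. In PGCs against control, 24 of the 41 rose and 11 fell, with a median of 0.40 (0.18 over all genes), beside 43.2% and 32.4% of all genes. With spike-ins 2 rose and 11 fell, with a median of -0.56. Hspb8, another small heat shock protein, fell from a mean level of 0.71 to -4.81 (adjusted p = 1.2e-08), with 1 of 3 PGC arrays above background, so that the size of its fall is uncertain. Fkbp6 was 16.4-fold higher (log2 4.04, adjusted p = 2e-08). Against knockdown cells 24 rose and 8 fell, beside 44.9% and 31.4% of all genes, but 2 rose and 9 fell with spike-ins. Hspb8 was again lower (adjusted p = 2.2e-08), and Dnajb6, a J-domain protein, was 7.21-fold lower in PGCs (log2 -2.85, adjusted p = 2.3e-08).

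Of 7 heat shock factors and regulators, 2 rose and 1 fell in knockdown cells, where 18.2% of all genes rose and 21.9% fell. Hsf5, a factor of spermatocytes, rose 1.93-fold (log2 0.95, limma adjusted p = 0.00093) and Hsf2bp, known from meiotic recombination, 1.86-fold (log2 0.90, adjusted p = 0.0016). Hsf1, the main activator of the heat shock genes and named here after its values were seen, did not pass there (log2 -0.12, adjusted p = 0.26). In PGCs against control 4 rose and 2 fell, beside 43.2% and 32.4% of all genes. Hsf2, a heat shock factor active in germ cells, was 2.68-fold higher (log2 1.42, adjusted p = 1.3e-06), Hsbp1, a small HSF1-binding protein, 1.65-fold (log2 0.72, adjusted p = 4.3e-05) and Hsf1 1.43-fold (log2 0.52, adjusted p = 0.00031). With spike-ins Hsf2 stood at 0.46, Hsbp1 at -0.24 and Hsf1 at -0.44. Against knockdown cells 3 rose and 4 fell, beside 44.9% and 31.4% of all genes. There Hsf2 stood at 1.65 and Hsbp1 at 0.79 (0.67 and -0.19 with spike-ins).

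The ring chaperone TRiC and its helper prefoldin, which fold actin and tubulin, counted 1 rise and 7 falls of 15 subunits in knockdown cells, with Tcp1 and Cct2 at -0.49 and -0.48 (limma adjusted p = 0.0014 and 0.0017). With quantile normalization these counts were 2 and 3. In PGCs against control 12 rose and 3 fell, with a median of 0.82 (-0.14 with spike-ins) and Pfdn5 and Cct8 at 1.16 and 0.93 (adjusted p = 4.2e-06 and 8.1e-06, and 0.20 and -0.04 with spike-ins). Against knockdown cells 12 rose and 2 fell, with Cct2 and Cct8 at 1.34 and 1.31. Mitochondrial chaperones counted no rise and 4 falls of 11 in knockdown cells, with Grpel2 at -0.82 and the HSP60 gene Hspd1 at -0.46 (adjusted p = 0.00067 and 0.0019). They counted 9 rises and no fall in PGCs against control, with Dnaja3 at 1.01 and Trap1, a mitochondrial HSP90, at 1.04 (adjusted p = 3.9e-06 for both), and 11 rises of 11 against knockdown cells, with Trap1 and Clpb at 1.23 and 1.11. With spike-ins no mitochondrial chaperone was called in either PGC comparison, and their medians were -0.45 and -0.03. Over all genes, 21.9% fell in knockdown cells, and 43.2% and 44.9% rose in PGCs against control and against knockdown cells.

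Of 25 ER chaperones and genes of the unfolded protein response, 3 rose and 10 fell in knockdown cells, 5 rose and 12 fell in PGCs against control, and 6 rose and 12 fell against knockdown cells. Among all genes, 18.2% rose and 21.9% fell in knockdown cells. The shares were 43.2% and 32.4% in PGCs against control, and 44.9% and 31.4% against knockdown cells. In knockdown cells the counts were 3 and 7 with quantile normalization and 5 and 7 with normexp, where the list median was 0.01 above that of all genes. Xbp1, a transcription factor of that response, fell by 0.82 in knockdown cells (log2 -0.82, limma adjusted p = 0.00025) and by 1.15 in PGCs (log2 -1.15, adjusted p = 4.7e-06). Dnajb9, a J-domain partner of BiP, rose by 0.88 in knockdown cells (adjusted p = 0.00056). Atf6, a membrane-bound sensor of ER stress, fell by 1.60 in PGCs against control (log2 -1.60, adjusted p = 1.1e-05) and by 2.32 against knockdown cells (log2 -2.32), and Hyou1, an ER chaperone, was 0.99 higher there. The median was -0.10 in knockdown cells and -0.30 in PGCs against control, beside -0.07 and 0.18 over all genes. Of 11 ubiquitin and proteasome stress genes, none rose and 1 fell in knockdown cells, the autophagy receptor gene Sqstm1 at -0.46 (adjusted p = 0.016), and Psma3 stood at -0.25 (adjusted p = 0.057). In PGCs against control 5 rose and 3 fell, with the unfoldase gene Vcp at 1.18 and Nfe2l2, the NRF2 gene, at -1.13 (adjusted p = 1.5e-06 and 4.7e-06), and against knockdown cells 7 rose and 3 fell, with Vcp and Nfe2l2 at 1.15 and -1.08. Against knockdown cells this list counted 3 rises and 3 falls with quantile normalization and with normexp, and no rise and 3 falls with spike-ins. With spike-ins no gene of the heat shock factor, TRiC, mitochondrial, ER or ubiquitin lists was called as a rise in either PGC comparison. In knockdown against control, with spike-ins and no term for the slide, no gene of these lists was called in either direction.

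**Figure D4:**
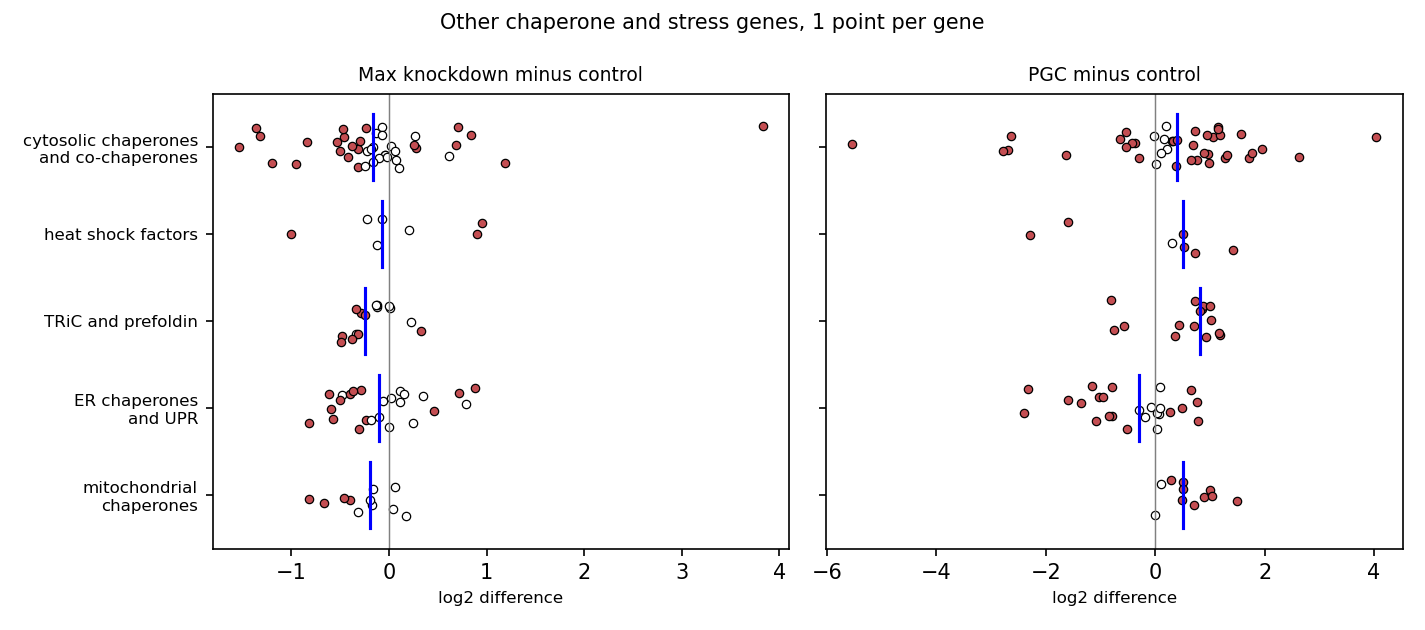
Log2 difference of every tested gene in 5 other lists of chaperone and stress genes, for Max knockdown minus control (left) and PGC minus control (right). Each point is 1 gene, filled where the adjusted p was under 0.05, and blue bars are list medians. In PGCs the TRiC and mitochondrial lists have medians of 0.82 and 0.51, while the ER list has -0.30.

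Heat shock genes are known to respond to handling, and PGCs alone were dissected and taken from embryos, so genes of dissociation stress and markers of other cells were read beside them. Of 15 immediate-early genes tested, none rose and 4 fell in knockdown cells, and 2 rose and 12 fell in PGCs against control, with 1 rise and 9 falls against knockdown cells. Over all genes, 32.4% and 31.4% fell in those PGC comparisons. The summed signal of the immediate-early genes, in units of the 75th percentile, was 53.5 to 58.2 in control cells, 52.2 to 67.3 in knockdown cells and 23.5 to 29.5 in PGCs. Much of that drop was Socs3 alone, at 4.13 to 4.34 in control, 4.38 to 4.8 in knockdown and -4.04 to -2.65 in PGC samples. Jund, the brightest of the list in PGCs, read 3.81 to 3.96 there and 3.14 to 3.56 in control cells. PGC replicate 1, the only PGC array on slide 3 and the highest for Hspa1a, had a summed signal of 29.5 against 23.5 and 25.5 for replicates 2 and 3.

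Markers of gonadal somatic cells were present in the PGC samples, with 16 of 19 above background on all 3 arrays against 15 in control and 13 in knockdown cells. Their summed signal was 22.5 to 29.1 in PGCs, 20.8 to 24.4 in control cells and 16 to 18.5 in knockdown cells. That sum mostly follows Foxl2, the brightest gene of the list in each group. Foxl2 read 3.68 to 4.13 in PGCs, 3.68 to 3.78 in control cells and 3.44 to 3.69 in knockdown cells. The sum therefore says little about the other somatic markers. Of 18 tested, 7 rose and 6 fell in PGCs against control, 11 rose and 2 fell against knockdown cells, and 1 rose and 7 fell in knockdown cells. Among all genes tested, 43.2% rose and 32.4% fell in PGCs against control, so the first of these counts lies near the general share. The shares were 44.9% and 31.4% against knockdown cells, and 18.2% and 21.9% in knockdown cells. The Sertoli cell gene Amh was above background on all PGC arrays and on no ES cell array, at a level of -3.39 to -2.37. Sox9, another Sertoli cell gene, was above background on 2 of 3 PGC arrays but also on all 3 control arrays. Hsd3b1 was brighter than Amh in PGCs, at -0.69 to 0.5, and above background on no control array. It was at least 56.8-fold above control (limma adjusted p = 0.00014). Nr5a1 and Cyp11a1 were among the other rises against control (5.25-fold and 5.39-fold). Acta2 and Col1a1 were among the 6 falls (11.5-fold and 3.59-fold). Blood and endothelial markers summed to 3.16 to 4.59 in PGCs, 2.17 to 2.84 in control cells and 2.78 to 3.78 in knockdown cells. Of 6 tested, 3 rose and 2 fell in PGCs against control. The globin genes Hbb-bt (at least 29.1-fold, limma adjusted p = 2.6e-07) and Hba-a1 (14.8-fold, adjusted p = 9.8e-06) rose, whereas the endothelial receptor genes Tie1 and Tek fell and were above background on no PGC array but on every ES cell array. The endothelial gene Pecam1 rose 1.31-fold, and Kdr did not pass the test (log2 -0.05). Germ cell markers summed to 129 to 149 in PGCs, 38.8 to 43.0 in knockdown cells and 10.1 to 11.1 in control cells, and pluripotency markers to 42.2 to 50.2, 103 to 112 and 75.3 to 89.9. The part of these cells or of handling in the chaperone differences was not tested, and in such bulk samples fewer cells of a type and less RNA per cell cannot be told apart. Each PGC array lay on a slide that held no ES cell array, so slide and group cannot be told apart there. A fit with slide as a random block cannot separate them either. In that fit 7 members were called in each PGC comparison.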

How the data were processed

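Scanner files of 9 arrays gave the Cy3 intensity of each spot as the processed signal of Feature Extraction (Agilent, version 10.7.3.1), as deposited and per the file headers, which state no background or detrending setting. The authors' deposited value table holds log2 values, and its scaling and centring are not stated. Its columns followed the scanner values scaled on the 75th percentile and centred per probe (r from 0.99994 to 0.99999), with column medians from -0.12 to 0.39 and the same direction. Whether other steps were applied to it is unknown.

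From the intensity, 65 probes with no unflagged spot on an array were left out, the remaining spots were averaged per probe, and log2 values were expressed relative to the 75th percentile of the array. Of 39364 probes, 26012 were named through RefSeq accessions of assembly GRCm38.p6, used for names and promoter windows because the array header gives mm9. The brightest probe stood for a gene. Testing took in genes with signal well above background on the 3 arrays of at least 1 group (20443 genes). One fit of 3 groups was made in limma 3.58.1 (R 4.3.3). P-values were adjusted by Benjamini-Hochberg across the tested genes, at a threshold of 0.05, and its code was tested on simulated data. Errors are standard errors (SE) of that fit. With 3 arrays a group, the number of arrays limits the precision. Where a gene was above background on no array of a group, the fold is a lower bound against the lowest signal above background.

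The members, the gene lists and the tests were chosen with earlier results of these data known. All members are described. From each of the 6 lists of folding genes, the 2 genes with the smallest p in each comparison were named, and the 3 genes most like Hspa2 and Hspa5 were taken by Pearson r over the 9 arrays, of which 1 is not reported here. For Hspa1b, the rule gave no value. The normexp alternative used the median signal of a spot. Alternatives were other scalings, filters, probe rules, samples, blocks and the deposited table.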

Additional observations from a re-analysis of the deposited data

How the results depend on the processing

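Spike-in scaling (6 probes) changed most. It called 1022, 8757 and 8424 genes, and 0, 2 and 1 chaperone genes, for knockdown against control, PGCs against control and PGCs against knockdown cells. The main counts were 8205, 15451 and 15593 genes and 4, 7 and 7 chaperone genes. With slide as a block as well, chosen after seeing the data, it called 7179 genes and 4 chaperone genes in knockdown against control. Called values whose sign turned with spike-ins were Hspa8 (-0.67) and Hsp90aa1 (-0.56) in PGCs against control, and Hspa5 (-0.75), Hspa8 (-0.63), Hsph1 (-0.24) and Hsp90aa1 (-0.62) against knockdown cells. In that comparison quantile normalization called 4 chaperone genes, with Hspa5 at 0.00, Hspa8 at -0.03 and Hsp90aa1 at 0.00. Normexp also called 4, with Hspa5 at -0.01 and Hspa8 at 0.00, and the repeat without spots of high background (a median over 100, chosen after seeing the data) gave 4, -0.01 and 0.00. The cause was not tested.

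Leaving out 1 array gave 6355 to 7125 genes and 2 to 3 chaperone genes in knockdown against control, 14559 to 15116 and 6 to 7 in PGCs against control, and 14809 to 15219 and 5 to 7 in PGCs against knockdown cells. Hspa1l, tested only with no filter on dim genes, had log2 differences of -0.06, 0.49 and 0.55 (limma adjusted p = 0.95, 0.47 and 0.44). Its probe was not well above background on most arrays, so these sizes are uncertain.

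The replicate block called 6098, 15327 and 14724 genes and 3, 7 and 5 chaperone genes. Knockdown replicate 4 shares its number with no other array, so under this block it adds nothing to the comparisons. Control and knockdown share the numbers 1 and 2, whose deviations correlated at 0.37 and 0.39 and whose arrays lay on 1 slide, and with PGCs same-numbered arrays correlated at -0.03 to 0.02, so the numbers were not taken as pairs. Under the block Hspa1a was at 1.44 (limma adjusted p = 0.078). Over all alternatives, 389 of the values for single members stayed on their side of the threshold with no called value turning sign, though some uncalled values did turn. A further 37 lost the call in the same direction, 1 gained it, and 13 called values turned sign or went to 0.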
